A study of Homo sapiens with 24 samples.

Results

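The A549 libraries transfected with snaR-A were compared with those transfected with a scrambled snaR-A sequence. A549 is a human lung adenocarcinoma epithelial line. The members were 6 of the 24 libraries of the series, 3 named snaR-A and 3 named scramble by title, genotype and treatment, and 5 when scramble replicate 3 was left out. Both groups received a plasmid in which a U6 promoter drives the insert, snaR-A in one and its scrambled sequence in the other, by lipofection, and were collected after 48 h. The other A549 libraries, used only to place these values, were 3 with an eGFP plasmid and 3 with a plasmid for tagged SF3B2, both built on pcDNA3.1. The remaining 12 libraries repeated the 4 plasmids in HEK293T, a human embryonic kidney line. No group was left untransfected, so every level below is one in transfected cells, and the design text calls the replicates biological without naming separate cultures.

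snaR-A is a small noncoding RNA made by RNA polymerase III from clusters of near-identical gene copies and found in transformed cells. SF3B2 is a subunit of SF3b, the part of the U2 small nuclear ribonucleoprotein that recognises the branch site of an intron, and the comparison asks which messenger RNAs differ in level when snaR-A is supplied in excess.

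The RNA that the plasmid encodes is shown as its genomic copies, since the plasmid insert itself was not given. RefSeq places 14 SNAR-A genes on chromosome 19 of GRCh38.p14. Of these, 10 were identical in sequence over 121 bases, SNAR-A3 at chr19:47923779-47923899 on the + strand among them, and SNAR-A12 at chr19:47907678-47907799 on the + strand belongs to a pair of 122 bases. The capitals mark the closing run of 8 T, the termination signal of RNA polymerase III, and the strand given is the one that ends in this run.
SNAR-A3: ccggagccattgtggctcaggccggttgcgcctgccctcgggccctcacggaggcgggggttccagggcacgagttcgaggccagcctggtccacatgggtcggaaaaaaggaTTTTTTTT
SNAR-A12: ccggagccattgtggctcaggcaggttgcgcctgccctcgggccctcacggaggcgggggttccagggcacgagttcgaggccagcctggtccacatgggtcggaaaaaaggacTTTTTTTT
The libraries were made from polyadenylated RNA, and snaR-A itself was not analysed here, so its level in the 3 snaR-A libraries was not checked. The paper measured snaR-A by RT-qPCR in A549 and HEK293T cells given the snaR-A or scramble construct.

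The 6 libraries held about 224200000 to 260900000 estimated counts each. Levels are given as counts per 1000000 (CPM), scaled between the 12 A549 libraries. The tissue and cell line fields of snaR-A replicate 3 name kidney and HEK293T, against its title, genotype and treatment. The summed CPM of 12 genes typical of A549 was 22011 in that library, inside the 20865 to 23494 of the 12 A549 libraries and far above the 85.9 to 1169 of the HEK293T libraries. The summed CPM of 12 genes typical of HEK293T was 554 there, against 1038 to 1493 in HEK293T. It was therefore kept as an A549 library. Markers of blood and endothelial cells summed to 1.05 to 1.37 CPM in the 6 libraries.

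Scramble replicate 3 stood apart in SF3B2. SF3B2, on chromosome 11 at 66050729 to 66069308 (GRCh38), was at 255, 251 and 266 CPM in the snaR-A libraries and at 317, 288 and 7470 CPM in the scramble libraries. The eGFP libraries held 257, 259 and 309 CPM and the SF3B2 libraries 41710, 39723 and 39260 CPM. Scramble replicate 3 was thus 24.7-fold above the mean of the other scramble libraries and at 18.6% of the mean of the libraries given the SF3B2 plasmid. The snaR-A libraries lay below all 3 scramble libraries. Since these values chose the library to leave out, they are given here as a description with no test. SF3B2 stays a member of the U2 particle and pull-down lists below, and their counts include it.

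**Figure D1:**
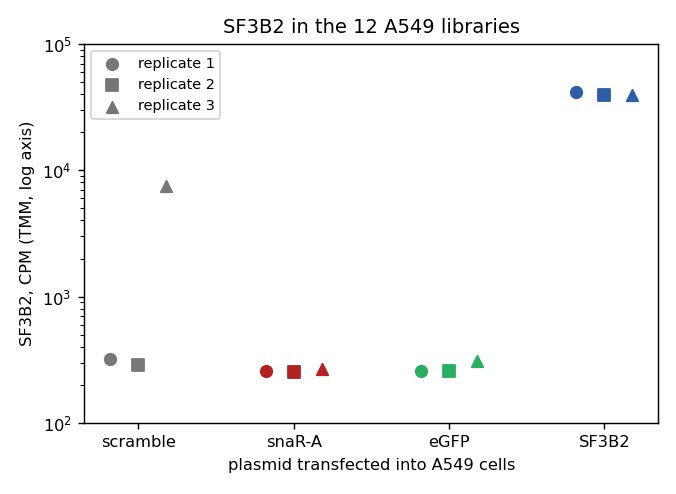
SF3B2 level in CPM (log axis) in each of the 12 A549 libraries, 1 point a library, by plasmid. Scramble replicate 3 sits at 7470 CPM, between the other scramble libraries (317 and 288) and the SF3B2 libraries (39260 to 41710).

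The same library differed elsewhere as well. Among 12982 annotated genes with a mean of at least 1 CPM, 72 lay more than 1 on the log2 scale from the mean of scramble replicates 1 and 2, while 34 differed by as much between those replicates. The median absolute log2 difference was 0.13 against 0.07. The correlation between gene GC content and each library's log2 level relative to the mean of the 6 libraries, across 12344 genes, which are not independent, was -0.26 and -0.25 in scramble replicates 1 and 2 and 0.48 in replicate 3. It was -0.09, -0.16 and 0.29 in the snaR-A libraries, and 0.35 to 0.41 in the SF3B2 libraries. The counts of calls and most list medians below are therefore given with and without scramble replicate 3. Many single genes are given over 6 libraries alone, and the part of these differences in the results was not tested.

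With all 6 libraries, no annotated gene with a mean of at least 1 CPM passed edgeR's quasi-likelihood F-test at an adjusted p under 0.05, which is the test meant below where no other is named. It called 4 of 21662 identifiers (0.0185%) and 0 of the 12982 annotated genes (0%), with 881 of the latter at an unadjusted p under 0.05. On the unadjusted scale 597 identifiers were higher (2.76%) and 732 lower (3.38%), and the groups did not overlap for 1336 higher (6.17%) and 1304 lower (6.02%). edgeR's exact test called 20 identifiers (0.0923%), 5 of them annotated genes, and DESeq2 38 (0.175%), of which 19 were annotated genes. Without scramble replicate 3 the test called 53 of 22172 identifiers (0.239%), 25 higher and 28 lower (37 and 16 with libraries scaled by total count alone, which put the median of all genes at 0.11 in place of 0.0092), of which 29 also changed by more than 1 on the log2 scale (0.131%). Of 12967 annotated genes 29 were called (0.224%), 13 higher and 16 lower, and 12 of these passed the fold limit (0.0925%). The groups then did not overlap for 4676 higher (21.1%) and 4335 lower (19.6%), and 2241 identifiers were higher (10.1%) and 2508 lower (11.3%) at an unadjusted p under 0.05. That count of calls depended strongly on the test. The exact test called 1687 (7.61%), 597 higher and 1090 lower, and DESeq2 2818 (12.7%), 1136 higher and 1682 lower. The fit of the annotated genes alone called 876 (6.76%).

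Genes induced by interferon, a cytokine alarm for foreign nucleic acid, were slightly higher with snaR-A, and no one of them passed the quasi-likelihood test. The exact test called 1 of them higher and DESeq2 3 over 6 libraries, and 5 and 6 without scramble replicate 3. Of all genes tested these 2 tests called, either way, 0.0923 and 0.175% over 6 libraries. Without that library they called 7.61 and 12.7%. Of the 53 listed, 50 were tested and 49 had a positive log2 fold change (50.2% of all genes tested), the exception being ZC3HAV1. Over 6 libraries 17 did not overlap and were higher (6.17% of all genes tested), 0 lower, and 19 were higher at an unadjusted p under 0.05 (2.76%). The list's median log2 fold change was 0.36, against 0.00058 over all genes tested. Without scramble replicate 3 the median was 0.35, with 48 above 0, 21 higher without overlap (21.1% of all genes tested) and 14 higher at an unadjusted p under 0.05 (10.1%).

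IFI27, a small mitochondrial protein, was at 1.73, 1.99 and 2.31 CPM with snaR-A and at 0.674, 0.389 and 0.785 CPM with scramble. The groups were clear of each other, with a log2 fold change of 1.70 (SE 0.26, unadjusted p = 0.00027, adjusted p = 0.44) and, without scramble replicate 3, of 1.92 (adjusted p = 0.061). IFITM1, a membrane protein that blocks virus entry, was at 1.38, 1.55 and 3.14 CPM against 0.833, 0.735 and 0.941 CPM (log2 fold change 1.27, adjusted p = 0.79). These were low levels, near or under a few CPM. OAS2, which makes the second messenger that activates RNase L, was at 10.7, 13.2 and 23.4 CPM against 9.68, 7.77 and 8.38 CPM (log2 fold change 0.87, adjusted p = 0.79). IFI6, an inhibitor of apoptosis, was at 20.8, 22.8 and 38.1 CPM against 17.6, 16.3 and 16.6 CPM (log2 fold change 0.69, adjusted p = 0.79). In both genes snaR-A replicates 1 and 2 lay just above the scramble libraries and replicate 3 well above them. MX1, a GTPase that blocks viral nucleocapsids, overlapped, at 54.8, 63.9 and 119 CPM against 60.1, 46.1 and 44.7 CPM. B2M, the light chain of MHC class I and a member of a separate list of antigen presentation genes, was at 178, 191 and 200 CPM against 168, 174 and 165 CPM (log2 fold change 0.17, adjusted p = 0.79). Of the 14 genes tested on that list 11 were above 0, with a median of 0.13.

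Much of the size of this difference lay in 1 library. snaR-A replicate 3 was the highest of the 3 snaR-A libraries for 50 of the 50 genes, against 39.6% of all genes tested. Without it the list's median was 0.18 with 44 genes above 0, and 0.14 with 42 above 0 when scramble replicate 3 was left out as well. The summed CPM of the list was 2585, 2829 and 3678 in the snaR-A libraries and 2743, 2457 and 2288 in the scramble libraries, so the sums overlapped. All 6 were far under the eGFP libraries, at 10814, 11077 and 9171. For 50 of the 50 genes each snaR-A library lay below each eGFP library (8.76% of all genes tested), and the median difference of eGFP over snaR-A in log2(CPM + 0.5) was 1.96. The SF3B2 libraries were at 3673, 3748 and 3332. OAS2, for example, stood at 149, 149 and 115 CPM with eGFP. The eGFP and SF3B2 plasmids have another backbone than the U6 plasmids, so plasmid and insert cannot be told apart in those comparisons.

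**Figure D2:**
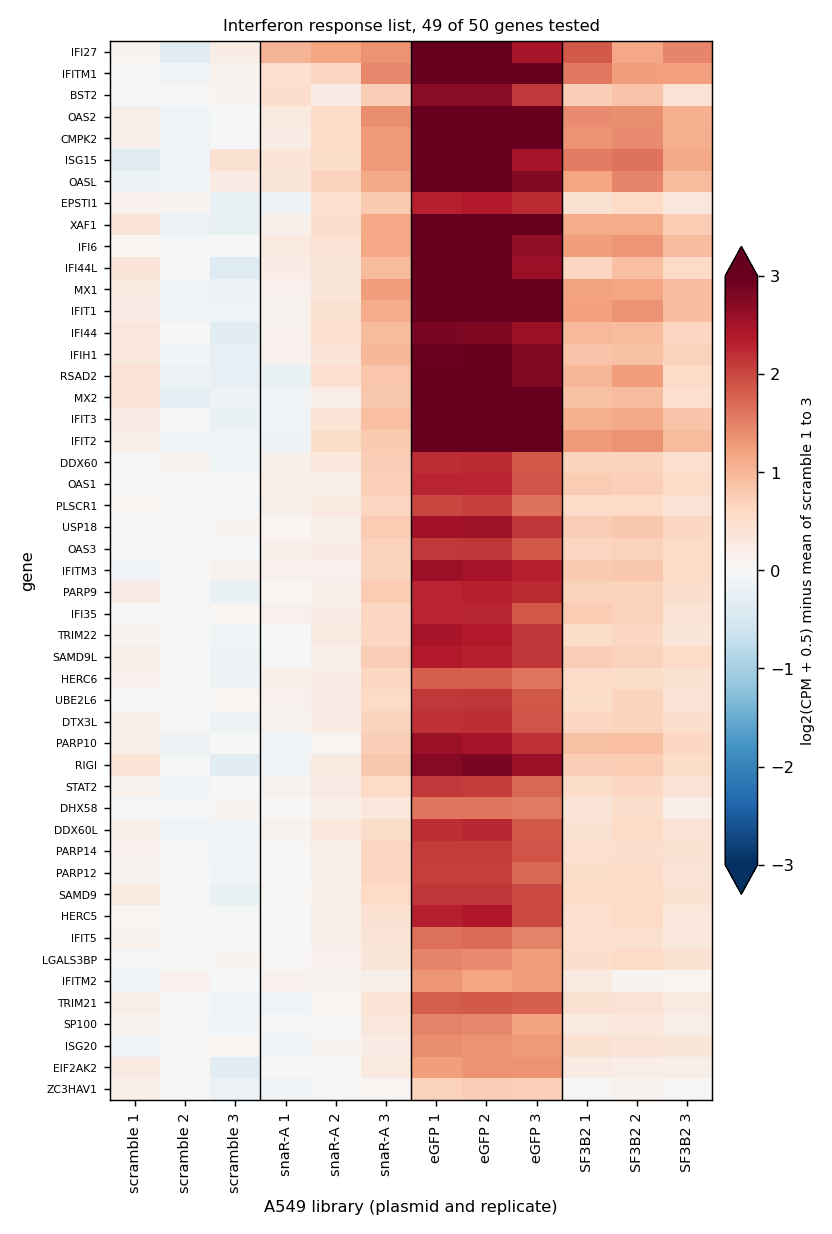
Heat map of 49 of the 50 interferon-induced genes tested (rows) in the 12 A549 libraries (columns), with colour for log2(CPM + 0.5) minus the mean of the scramble libraries, ordered by log2 fold change over 6 libraries. snaR-A replicate 3 is the highest of the 3 snaR-A libraries in every row, and the eGFP libraries all lie above them.

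The promoters of the listed genes were searched for a sequence motif of interferon-induced genes. The genes were listed as interferon-induced, so the motif describes the list and uses no level from these libraries. RefSeq promoter windows of 300 bases (250 before to 50 after the start, GRCh38.p14) were found for 41 of the listed genes. The motif GAAANNGAAA, the core of the interferon-stimulated response element, read on both strands with overlaps allowed, was present in 27 of them (65.9%), against 996 of all 27305 promoters (3.65%). The 250 bases before the start are shown for IFI27, the member of largest log2 fold change, and for IFI6, with the motif in capitals on either strand.
IFI27, chr14:94110486-94110735, + strand: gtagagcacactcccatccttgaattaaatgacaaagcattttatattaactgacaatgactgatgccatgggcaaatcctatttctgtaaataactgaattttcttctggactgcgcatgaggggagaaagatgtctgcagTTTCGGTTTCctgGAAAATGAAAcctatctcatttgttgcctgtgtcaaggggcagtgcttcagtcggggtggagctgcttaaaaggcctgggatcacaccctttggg
IFI6, chr1:27672193-27672442, - strand: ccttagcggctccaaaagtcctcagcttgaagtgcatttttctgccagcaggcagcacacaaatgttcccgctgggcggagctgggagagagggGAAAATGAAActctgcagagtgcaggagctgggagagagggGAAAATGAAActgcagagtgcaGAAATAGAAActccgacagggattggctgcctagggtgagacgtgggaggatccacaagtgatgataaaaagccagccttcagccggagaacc
IFI27 held 2 matches and IFI6 held 3, which describes the letters and not a bound site.

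Targets of p53, the DNA damage transcription factor, were also slightly higher on balance. Of 21 tested, 20 were above 0 over 6 libraries, with 8 higher and 1 lower without overlap (6.17 and 6.02% of all genes tested) and a median of 0.12. The quasi-likelihood and exact tests called 0 and DESeq2 called 1. SESN1, a stress-induced inhibitor of mTORC1, was at 18.3, 20.2 and 19.6 CPM against 15.6, 16.1 and 15.4 CPM. Its groups were well apart (log2 fold change 0.30, SE 0.05, unadjusted p = 0.00080, adjusted p = 0.77), and the eGFP libraries, at 16.2, 16.6 and 16.3 CPM, lay with scramble. FAS, a death receptor, was at 35.4, 38.0 and 36.6 CPM against 31.6, 31.9 and 32.2 CPM (log2 fold change 0.20, adjusted p = 0.79). Its eGFP libraries, at 41.4, 41.8 and 34.8 CPM, did not lie with scramble. AEN, a nuclease, and FDXR, ferredoxin reductase, had the lowest p of the list without scramble replicate 3. AEN was at 111, 122 and 124 CPM against 90.5, 96.7 and 116 CPM, which overlap, and its log2 fold change without scramble replicate 3 was 0.34 (adjusted p = 0.065). Without that library 18 of the 21 were above 0, 15 higher and 1 lower did not overlap (21.1 and 19.6% of all genes tested), and the median was 0.15. The exact test then called 9 higher and DESeq2 11 higher and 1 lower (either way 7.61 and 12.7% of all genes tested).

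Replication-dependent histone genes, whose messages normally end in a stem-loop and not a poly(A) tail, gave 1 call, without scramble replicate 3, where DESeq2 gave 5 (and 1 over 6 libraries). DESeq2 called 12.7% of all genes tested without that library and 0.175% over 6 libraries. Of 46 tested, 42 were above 0 with a median of 0.24 over 6 libraries, and 43 with a median of 0.47 without scramble replicate 3. Higher without overlap were 8 over 6 libraries (6.17% of all genes tested) and 21 without scramble replicate 3 (21.1%). With snaR-A replicate 3 left out of the 6 libraries, 32 of the 46 were above 0 and the median was 0.11. Only 17 had a mean of at least 1 CPM. Fitted with annotated genes alone over 6 libraries, 16 of these were above 0, with a median of 0.14. H4C14, a histone H4 gene on chromosome 1, rose without scramble replicate 3. It was at 12.3, 12.9 and 12.9 CPM against 5.67, 5.15 and 9.43 CPM (log2 fold change 1.23, SE 0.07, adjusted p = 0.0023). All snaR-A libraries lay above all scramble libraries, and also above the eGFP libraries at 8.42, 7.82 and 3.87 CPM. With all 6 libraries the log2 fold change was 0.91 (adjusted p = 0.79). Since 98.6% of its 31-base words occur in H4C15 as well, which of the copies gave the reads is uncertain. H2BC21, a polyadenylated H2B gene, was at 11.7, 12.7 and 14.1 CPM against 10.6, 10.8 and 10.5 CPM (log2 fold change 0.27, adjusted p = 0.79).

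Transcripts of the mitochondrial genome were lower, in a way that hung on scramble replicate 3. All 15 tested were below 0 over 6 libraries, with a median of -0.29, but 0 had an unadjusted p under 0.05 and in 0 did the groups separate. Leaving scramble replicate 3 out, all 15 separated (19.6% of all genes tested), all 15 had an unadjusted p under 0.05 (11.3%), 0 were called and the median was -0.51. The exact test called 13 of them and DESeq2 14 (either way 7.61 and 12.7% of all genes tested). MT-ND5, a subunit of complex I, was at 3409, 3577 and 3421 CPM with snaR-A and at 6207, 4985 and 2781 CPM with scramble. Scramble replicates 1 and 2 stood above the snaR-A libraries and replicate 3 below them, and without it the log2 fold change was -0.70 (SE 0.09, adjusted p = 0.051). MT-ND2, another complex I subunit, was at 6718, 7521 and 7396 CPM against 12641, 10324 and 6065 CPM. MT-RNR1, the small ribosomal RNA, was at 2899, 3042 and 3446 CPM against 3700, 3489 and 3355 CPM, a smaller difference. Mitochondrial transcripts made up 11.3, 12.2 and 11.6% of counts with snaR-A and 16.3, 14.4 and 10.0% with scramble. The eGFP libraries, at 10.2, 9.25 and 12.3%, and the SF3B2 libraries, at 9.5, 8.86 and 10.9%, lay with snaR-A and with scramble replicate 3. With annotated genes fitted alone and scramble replicate 3 left out, 11 of the 15 were called lower (either way 6.76% of all genes in that fit). In bulk RNA a lower share of these transcripts per cell and fewer mitochondria-rich cells cannot be told apart.

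**Figure D3:**
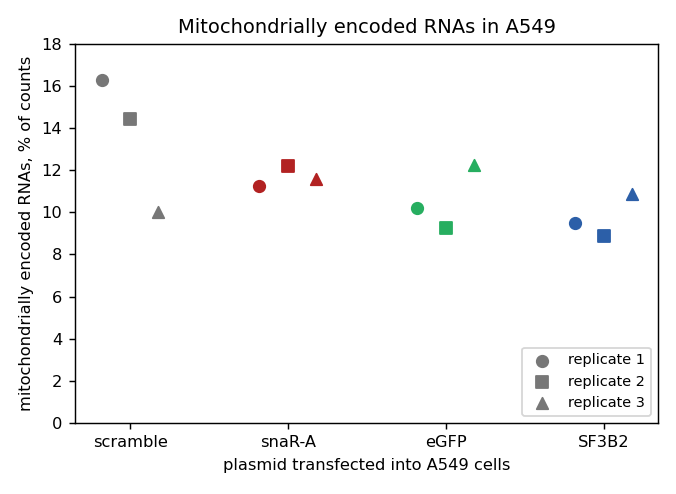
Mitochondrially encoded transcripts as a percent of counts in each of the 12 A549 libraries, 1 point a library, by plasmid. Scramble replicates 1 and 2 (16.3 and 14.4%) stand above scramble replicate 3 (10.0%) and the snaR-A libraries (11.3 to 12.2%).

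Among the 29 annotated genes called without scramble replicate 3, 16 fell, among them IL6, SOD2, EREG and NR4A2. IL6, an inflammatory cytokine on chromosome 7, was at 7.55, 7.84 and 7.68 CPM with snaR-A and at 12.1, 11.7 and 6.83 CPM with scramble. It fell against scramble replicates 1 and 2 (log2 fold change -0.63, SE 0.06, adjusted p = 0.020) and overlapped once replicate 3 was counted (-0.41, adjusted p = 0.79). SOD2, the mitochondrial superoxide dismutase and an NF-kappaB target, was at 261, 279 and 265 CPM against 370, 349 and 265 CPM (-0.43 without scramble replicate 3, SE 0.05, adjusted p = 0.036). EREG, epiregulin, a ligand of the EGF receptor, was at 250, 271 and 260 CPM against 342, 335 and 262 CPM (-0.38, SE 0.04, adjusted p = 0.040). NR4A2, an orphan nuclear receptor induced by signalling, was at 16.9, 16.2 and 17.2 CPM against 22.5, 21.4 and 18.1 CPM (-0.39, SE 0.05, adjusted p = 0.047). For IL6, SOD2 and EREG scramble replicate 3 was at or below the snaR-A libraries' highest value, and for NR4A2 just above it. In these 4 genes the eGFP libraries lay with scramble replicates 1 and 2, IL6 for instance at 14.6, 13.7 and 13.1 CPM, and the SF3B2 libraries with snaR-A, IL6 at 6.50, 5.89 and 5.89 CPM.

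The list of chemokines and inflammatory cytokines as a whole was less one-sided. Of 23 tested, 13 were below 0 over 6 libraries with a median of -0.02, and 14 were above 0 with a median of 0.04 when libraries were scaled by total count alone. Once scramble replicate 3 was left out, 15 were below 0, 9 lower and 3 higher did not overlap (19.6 and 21.1% of all genes tested), and the median was -0.12. IL6 alone was called, against 3 lower by the exact test and 7 lower by DESeq2 (either way 7.61 and 12.7% of all genes tested). ICAM1, the leukocyte adhesion molecule, was at 4.62, 4.51 and 5.11 CPM against 6.16, 5.69 and 5.16 CPM, the groups being just clear of each other (log2 fold change -0.26, adjusted p = 0.79). LIF, a cytokine of the IL6 family, overlapped at 78.7, 79.1 and 73.1 CPM against 108, 94.2 and 75.7 CPM.

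The other called genes that rose by modest amounts without scramble replicate 3 had varied roles. CSRNP1, a nuclear protein induced by axin and early signalling, was at 21, 21.3 and 21.6 CPM against 14.1, 15.6 and 19.4 CPM (log2 fold change 0.52, SE 0.05, adjusted p = 0.031). It stayed above all 3 scramble and all 3 eGFP libraries, the latter at 20.1, 20.2 and 16.3 CPM. TMEM167A, a protein of the secretory pathway, was at 136, 130 and 136 CPM against 95.0, 98.4 and 141 CPM (0.47, SE 0.04, adjusted p = 0.011). PFKM, muscle phosphofructokinase, was at 62.9, 62.0 and 58.3 CPM against 45.0, 46.3 and 67.0 CPM (0.41, adjusted p = 0.039). SRPRB, a subunit of the signal recognition particle receptor, was at 53.5, 53.1 and 53.9 CPM against 39.5, 42.1 and 55.7 CPM (0.39, adjusted p = 0.029). In TMEM167A, PFKM and SRPRB scramble replicate 3 lay above every snaR-A library. PBX2 and TGFB2-OT1 were called higher at under 6 CPM, with log2 fold changes of 1.52 and 0.92, and scramble replicate 3 exceeded the snaR-A libraries in both. ENSG00000262526, at 8.84, 6.98 and 5.68 CPM against 1.92, 1.14 and 5.61 CPM, shares 96.8% of its 31-base words with GABARAP.

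The other called genes that fell showed the same placing of the libraries. UBE2L3, a ubiquitin-conjugating enzyme, was at 120, 119 and 121 CPM against 189, 160 and 118 CPM (log2 fold change -0.55, SE 0.07, adjusted p = 0.047). BUD31, a spliceosome component, was at 60.5, 62.0 and 60.9 CPM against 79.3, 74.0 and 58.7 CPM (-0.33, SE 0.04, adjusted p = 0.047). CEP152, a scaffold of centriole duplication, was at 22.2, 23.1 and 23.1 CPM against 35.2, 30.4 and 18.2 CPM (-0.53, adjusted p = 0.047). In all 3 genes scramble replicate 3 was the lowest of the 6 libraries. F2RL2, a protease-activated receptor, was at 34.4, 34.6 and 34.7 CPM against 41.8, 41.2 and 35.0 CPM (-0.27, adjusted p = 0.047), the smallest change among the 29. TCHP, CCDC127, ESRG and ZNG1C fell by 0.30 to 0.63 on the log2 scale, and 92.5% of the 31-base words of ZNG1C are shared. Below 11 CPM, FAM3C2P, RNU6-3P and ASDURF were called lower by 1.11, 1.30 and 2.43, and each shares at least 90.2% of its 31-base words with another gene.

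Where the other libraries lay was counted for all 29. These genes were called for a difference between the snaR-A libraries and scramble replicates 1 and 2. Counts that use those libraries again can exceed the share of all genes by that choice alone, so they are a description. Scramble replicate 3 was nearer to the snaR-A mean than to the other scramble libraries in 26 (89.7%), against 70.9% of all annotated genes tested. In 22 (75.9%) eGFP replicate 3 lay beyond both other eGFP libraries on the side on which scramble replicates 1 and 2 lay from snaR-A, against 61.8%. BUD31 was at 55.3, 60.9 and 78.9 CPM and UBE2L3 at 116, 122 and 179 CPM in the eGFP libraries. The snaR-A libraries lay clear of all eGFP libraries in the called direction for 7 of the 29 (24.1%), namely CSRNP1, H4C14, IL6, SOD2, NR4A2, EREG and F2RL2, against 15.3% of annotated genes tested, and clear in the opposite direction for 0 (5.31%).

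**Figure D4:**
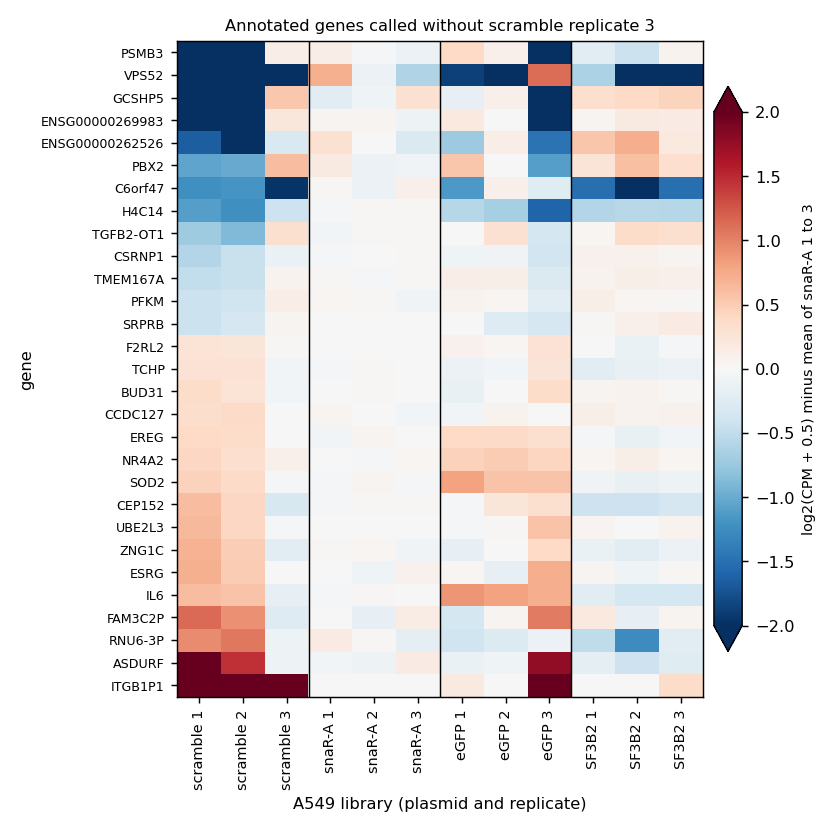
Heat map of the 29 annotated genes called without scramble replicate 3 (rows) in the 12 A549 libraries (columns), with colour for log2(CPM + 0.5) minus the mean of the snaR-A libraries, red higher and blue lower. In 26 of 29 rows scramble replicate 3 lies nearer to the snaR-A libraries than to scramble replicates 1 and 2.

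The largest differences belonged to identifiers that were listed at 0 in some libraries and not in others. PSMB3, a proteasome subunit on chromosome 17, was at 48.2, 43.0 and 40.3 CPM with snaR-A and at 0, 0 and 48.1 CPM with scramble. Against scramble replicates 1 and 2 the snaR-A mean was at least 6941-fold higher, taking a floor of 3 counts over those 2 libraries (adjusted p = 7.2e-05). Over 6 libraries the groups overlapped (adjusted p = 0.90), and eGFP replicate 3 was also at 0. Each called identifier was summed with the unnamed identifier most opposed to it in level over the 24 libraries, picked from these data. For PSMB3 this was ENSG00000275903 (r = -0.96). Their summed CPM was 97.4, 92.2 and 88.1 with snaR-A and 84.2, 86.6 and 97.4 with scramble. The log2 difference of the sum was 0.12 without scramble replicate 3. A partner picked for its opposed level flattens the sum in part by that choice, so these sums are a description. ENSG00000282880 was the partner of NR4A2, ESRG and EREG alike. Their sums differed by -0.018, -0.15 and -0.30 without scramble replicate 3. For SRPRB and CSRNP1 the sums with their own partners differed by 0.05 and -0.13. Whether reads were shared between such identifiers was not tested.

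VPS52, a subunit of a tethering complex for endosomal vesicles, was at 8.51, 4.54 and 3.13 CPM with snaR-A and at 0 in all 3 scramble libraries. The bound was at least 1270-fold higher over 6 libraries (floor of 3 counts over the group, adjusted p = 0.066) and at least 855-fold without scramble replicate 3 (adjusted p = 0.028). The eGFP libraries were at 1.01, 0 and 11.4 CPM, which span the range of the snaR-A libraries. C6orf47 was at 4.85, 4.34 and 5.17 CPM against 1.76, 1.82 and 0.854 CPM (log2 fold change without scramble replicate 3 of 1.41, adjusted p = 0.0079). Its most opposed unnamed identifier was ENSG00000226103 (r = -0.98), and the sum differed by -0.0087 on the log2 scale without scramble replicate 3. For VPS52 the partner was ENSG00000276761 (r = -0.83), and the sum differed by 0.27. ITGB1P1, a processed pseudogene whose 31-base words all occur elsewhere, was at 0 in the 3 snaR-A libraries and at 45.0, 25.6 and 4.42 CPM with scramble. GCSHP5 and ENSG00000269983 had the pattern of PSMB3, at 0 in scramble replicates 1 and 2 and in eGFP replicate 3.

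The 4 identifiers called over 6 libraries were of this kind and have no name in the gene tables. They are named here because they are the whole count. ENSG00000235360 was at 3.49, 3.12 and 3.33 CPM with snaR-A and at 0 in the scramble libraries (adjusted p = 0.00099), and ENSG00000228177 was at 0 with snaR-A and at 1.95, 2.88 and 4.31 CPM with scramble (adjusted p = 0.034). ENSG00000277808 was at 0 with snaR-A and at 7.19, 6.66 and 3.97 CPM with scramble (adjusted p = 0.018). Its sum with ENSG00000278516, its most opposed unnamed identifier (r = -0.97), was 8.34, 8.69 and 8.51 CPM against 9.55, 9.54 and 8.06 CPM. For ENSG00000235360 the partner was ENSG00000228177 (r = -0.80), with sums of 3.49, 3.12 and 3.33 CPM against 1.95, 2.88 and 4.31 CPM. ENSG00000274638 was at 0.599, 0.427 and 0.446 CPM with snaR-A and at 0 in the other 9 A549 libraries (adjusted p = 0.028). For ENSG00000228177 and ENSG00000274638 the sums with their own partners stayed apart, by -0.79 and -2.30 on the log2 scale without scramble replicate 3. Of the 53 identifiers called without scramble replicate 3, 19 were at 0 in 1 library and at 100 or more counts in another of the same plasmid and line, in some group of the series. With such identifiers left out of the fit, a setting chosen after seeing the data, 0 were called over 6 libraries and 249 without scramble replicate 3.

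The SF3 subunits and other U2 particle genes gave 0 calls. Of 17 tested, 12 were below 0 in both comparisons, with medians of -0.04 and -0.05. The 17 include SF3B2, whose values chose the library to leave out, so its part in these counts is no evidence. The direction turned with the scaling, since with libraries scaled by total count alone 9 of the 17 were above 0 in both comparisons, with medians of 0.03 and 0.06. The exact test and DESeq2 called 5 and 6 lower and 1 higher each without scramble replicate 3 (either way 7.61 and 12.7% of all genes tested). SF3B4 was at 92.3, 91.1 and 92.6 CPM with snaR-A and at 105, 99.2 and 92.7 CPM with scramble (log2 fold change -0.11, SE 0.05, adjusted p = 0.79). It was lower in every snaR-A library, by a hair against scramble replicate 3. SF3A1 was at 103, 104 and 109 CPM against 164, 107 and 120 CPM, where scramble replicate 1 alone stood high. SF3B1, the largest SF3b subunit, overlapped at 463, 465 and 468 CPM against 422, 461 and 502 CPM (0.01, SE 0.06). SF3B6 was at 82.5, 84.5 and 81.6 CPM against 80.5, 80.1 and 81.4 CPM.

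The genes of proteins recovered with snaR-A in the study's pull-down were mostly below 0 under the TMM scaling. They include SF3B2, whose values chose the library to leave out, and the counts here hold it. Of 57 tested, 45 were below 0 over 6 libraries, 6 lower and 2 higher did not overlap (6.02 and 6.17% of all genes tested), 0 were called and the median was -0.06. When scramble replicate 3 was left out, 43 were below 0, 35 lower and 10 higher did not overlap (19.6 and 21.1% of all genes tested), 28 were lower and 2 higher at an unadjusted p under 0.05 (11.3 and 10.1%), 0 were called and the median was -0.10. The exact test then called 18 lower, and DESeq2 24 lower and 1 higher (either way 7.61 and 12.7% of all genes tested). With libraries scaled by total count alone, 30 and 29 of the 57 were above 0, with medians of 0.01 and 0.0067. KHSRP, which binds AU-rich elements, was at 170, 169 and 173 CPM against 181, 181 and 189 CPM. The groups did not overlap (log2 fold change -0.11, adjusted p = 0.79), and without scramble replicate 3 the sign turned when libraries were scaled by size alone. PABPC4, a poly(A)-binding protein, was at 135, 136 and 127 CPM against 216, 169 and 127 CPM, and RBM8A, of the exon junction complex, at 124, 125 and 133 CPM against 168, 152 and 126 CPM. Both overlapped through scramble replicate 3.

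The SR proteins and the genes whose splicing the study examined gave 0 calls by the quasi-likelihood test. Of 25 SR protein and nuclear speckle genes, 15 were below 0 over 6 libraries (median -0.03) and 17 without scramble replicate 3 (median -0.08). Without that library the exact test called 6 lower and 1 higher and DESeq2 8 lower and 3 higher (either way 7.61 and 12.7% of all genes tested). Scaled by total count alone, 16 and 15 of the 25 were above 0, with medians of 0.04 and 0.03. SRSF4 was at 66.8, 69.7 and 69.6 CPM against 108, 85.3 and 64.6 CPM, and TRA2B at 179, 178 and 173 CPM against 220, 204 and 170 CPM. Both were lower than scramble replicates 1 and 2 and above replicate 3. Of the 13 splicing targets 9 were below 0 over 6 libraries (median -0.02), and 9 were above 0 with a median of 0.04 when libraries were scaled by total count alone. Without scramble replicate 3 the median was 0.02, and 1 was higher at an unadjusted p under 0.05 (10.1% of all genes tested). NME1, a nucleoside diphosphate kinase and metastasis suppressor, was at 193, 193 and 185 CPM against 171, 181 and 206 CPM (log2 fold change 0.03, SE 0.07, adjusted p = 0.95). These values are gene levels, and intron retention was not analysed here.

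The remaining lists gave 0 calls by the quasi-likelihood test. Heat shock genes were below 0 in 12 of 14, with medians of -0.10 and -0.09 (8 of 14 above 0 without scramble replicate 3 when scaled by total count alone, median 0.01), HSPH1 being at 365, 354 and 356 CPM against 408, 392 and 375 CPM (log2 fold change -0.13, adjusted p = 0.79). HSPA5, the main chaperone of the endoplasmic reticulum, was at 1103, 1124 and 1170 CPM against 1292, 1284 and 1234 CPM (-0.17, adjusted p = 0.79), lower in all 3 libraries. MYC was at 117, 117 and 120 CPM against 129, 128 and 126 CPM (-0.12, adjusted p = 0.79), and EGR1, an immediate early transcription factor, at 89.5, 86.5 and 89.8 CPM against 84.8, 75.3 and 68.9 CPM (0.21, adjusted p = 0.79). RNA polymerase III subunits and factors were below 0 in 19 of 27 (median -0.04) and, scaled by total count alone, above 0 in 17 (median 0.03), with POLR3D at 45.1, 47.0 and 52.1 CPM against 58.1, 52.5 and 54.3 CPM. Ribosomal protein genes were above 0 in 44 of 81 (median 0.02). Without scramble replicate 3, 32 of these were higher and 13 lower at an unadjusted p under 0.05 (10.1 and 11.3% of all genes tested). DESeq2 then called 30 higher and 11 lower (either way 12.7% of all genes tested). RPS19 was at 394, 392 and 448 CPM against 273, 317 and 538 CPM. The lists of proliferation, NRF2, sterol, hypoxia, epithelial-mesenchymal transition, ATF4, immediate early and small nucleolar RNA host genes had medians between -0.05 and 0.06 in both comparisons, and between 0.03 and 0.16 when scaled by total count alone.

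**Figure D5:**
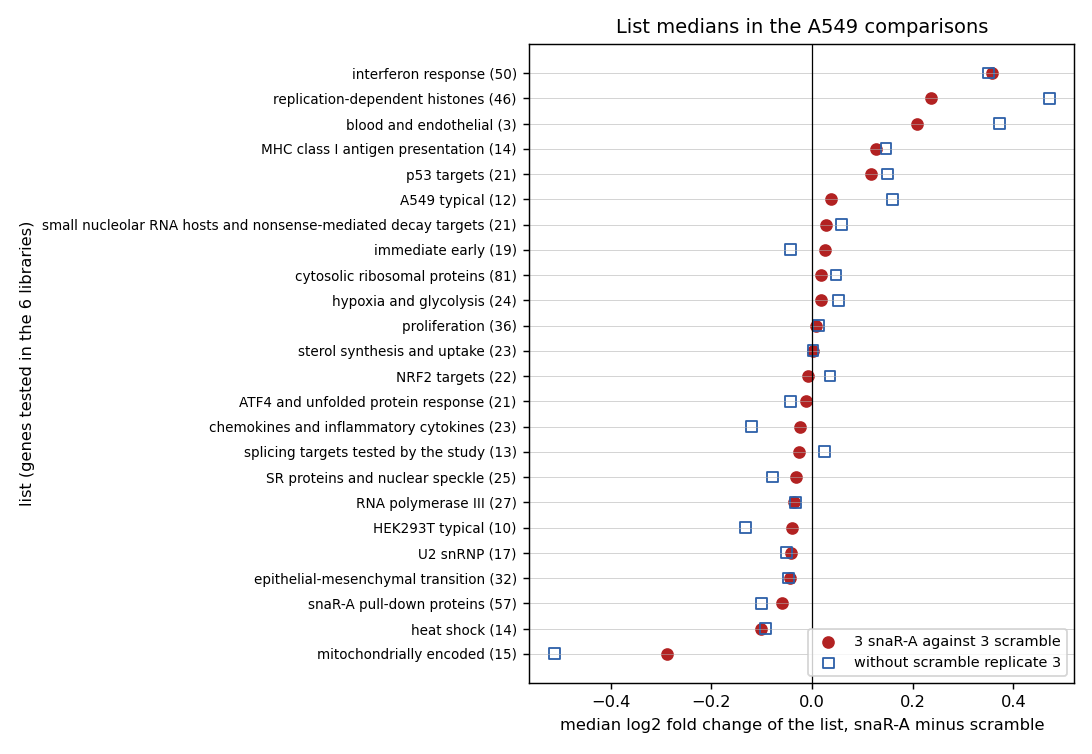
Median log2 fold change of each gene list, snaR-A against scramble, with all 6 A549 libraries and without scramble replicate 3, 1 marker a list and comparison. Interferon-induced genes (0.36 and 0.35) and histones (0.24 and 0.47) lie highest, and mitochondrially encoded transcripts (-0.29 and -0.51) lowest, among the lists with at least 10 genes tested.

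The difference between the cell lines was tested directly. The effect of snaR-A differed between A549 and HEK293T at an adjusted p under 0.05 for 2831 of 24784 identifiers (11.4%), and for 4268 of 25503 (16.7%) without A549 scramble replicate 3. Of all 24784 identifiers, 1186 were more positive in A549 and 1645 in HEK293T. Without A549 scramble replicate 3 these were 2231 and 2037 of 25503. The list counts below are to be read beside these shares. Of the 50 interferon-induced genes the log2 fold change was more positive in A549 for 6 and in HEK293T for 2. For these 50 genes the counts were 7 and 3 without A549 scramble replicate 3, and the median in HEK293T was 0.04 over all libraries. IFITM1 and IFI6 were more positive in A549, by 2.01 and 1.08 on the log2 scale. Of 21 p53 targets 7 were more positive in HEK293T and 0 in A549 (6 and 1 without that library). Of 81 ribosomal protein genes 30 were more positive in A549 and 0 in HEK293T (58 and 0 without that library). Their median was 0.02 in A549 and -0.31 in HEK293T over all libraries, so the larger departure from 0 was in HEK293T. The lines share no library.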

How the data were processed

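RNA was sequenced from A549 and HEK293T cells 48 h after transfection, with rRNA depletion, poly(A) enrichment and a stranded kit. The values are estimated counts per Ensembl gene identifier, deposited by the authors. Per the study's methods and the submitters' processing notes, reads were trimmed with Trim Galore and quantified on the transcriptome with Salmon, with hg38 as the build. How transcripts were summed to genes and the annotation release are not given in the sources used here. Values that were not whole were rounded. The 6 libraries totalled about 224200000 to 260900000 counts each, and their number limits the precision more than depth does. Of 60236 identifiers 54903 were matched to a name and 5333 were not. GENCODE release 44 gave positions.

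Libraries were grouped by the labels. edgeR 4.0.16 (R 4.3.3) was run on all 60236 identifiers as the main analysis, with filterByExpr, TMM factors, the quasi-likelihood F-test on the 2 groups alone and Benjamini-Hochberg adjustment over all identifiers tested, at an adjusted p of 0.05, with a fold limit of 1 on the log2 scale. Standard errors are the log2 fold change divided by the square root of F. CPM are TMM-scaled. The fit was run with all 6 libraries and without scramble replicate 3. A model with an interaction term, over the A549 and HEK293T snaR-A and scramble libraries, tested the difference between the lines. The p-values measure the spread between these libraries.

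Alternatives were edgeR's exact test, DESeq2 1.42.0, RLE factors, library size alone, a minimum of 10 counts in each library or no minimum at all, annotated genes of at least 1 CPM alone, all A549 libraries in 1 fit, the replicate number as a block and each replicate left out. Chosen after seeing the data were a GC offset, that offset with the block, and a fit without identifiers at 0 in 1 library and at 100 or more counts in another of the same group. Sequence sharing was the share of a gene's 31-base words found in transcripts of another gene. The code was tested on simulated counts.

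Genes were named by a rule: the 10 largest log2 fold changes each way among those at an unadjusted p under 0.05 with groups that did not overlap, all past the threshold up to 30, SF3B2, NME1 and the U2, splicing target and interferon lists, and the 2 members of lowest p of every other list. Among those it gave, the ones described were chosen to show each group and some it gave are not reported here. The members and lists were chosen with earlier results of these data known. The 24 lists are described by counts and medians.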

Additional observations from a re-analysis of the deposited data

Results flagged for a closer look

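Results are given here because the effect of snaR-A differed between A549 and HEK293T by the interaction test, both with all libraries and without A549 scramble replicate 3. The test passed an adjusted p of 0.05 for 2831 identifiers with all libraries and for 4268 without that library. The values below are differences of the log2 fold change, A549 minus HEK293T, over all 12 libraries. A positive value means a more positive log2 fold change in A549, which a rise in A549 or a larger fall in HEK293T can give. MYC, for example, was lower with snaR-A in A549, as given above, and IFITM1 was at a low level there. Genes with a group at 0 throughout, such as VPS52, are left out, since their fitted difference depends on the prior count.

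Among interferon-induced genes the difference was 2.01 for IFITM1, 1.08 for IFI6, 0.84 for DDX60, 0.84 for UBE2L6 and 0.39 for LGALS3BP, and the opposite for ISG20 (-1.2) and PARP12 (-1.97). B2M, of antigen presentation, differed by 0.37. In the U2 particle SF3B6 differed by 0.3 and SF3B4 by -0.39, and the spliceosome and splicing regulators BUD31, TRA2B and KHSRP by -0.44, -0.49 and -0.28. The splicing target MUS81 differed by -0.5.

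Of the stress genes, the p53 target AEN differed by -0.7 and GADD45B by 0.53, the chaperone genes HSPH1 and BAG3 by -0.48 and -0.38, and the amino acid transporter genes SLC3A2 and SLC7A5 by -0.4 and -0.36. BNIP3L, a mitophagy receptor, differed by 0.5. The cytokine LIF differed by -1.39. Of growth genes, MYC differed by 0.49, FOXM1 by -0.26, the histone gene H2BC21 by 0.5 and the ribosomal protein gene RPL41 by 0.72. The sterol pathway genes SQLE and ACAT2 differed by 0.58 and -0.27. The neurofilament-type genes NEFL and INA, typical of HEK293T, differed by 0.53 and -0.46. C6orf47 differed by 1.63, TCHP by -0.57, HNRNPUL2-BSCL2, which shares 99.2% of its 31-base words with HNRNPUL2, by -1.04, and ENSG00000286966 by -1.74. For C6orf47 the sum with its most opposed unnamed identifier, given above, hardly differed between the A549 groups without scramble replicate 3. That partner was picked for its opposed level, so the sum is a description.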

How the results depend on the processing

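Over 6 libraries the 4 identifiers called, which were also the 4 past the fold limit, became 20 and 18 with the exact test, 38 and 21 with DESeq2, 12 and 11 with no count filter, and 0 with at least 10 counts in every library, with annotated genes alone, with all A549 libraries in 1 fit and without identifiers at 0 and at 100 or more counts within a group, where 892 to 1575 had an unadjusted p under 0.05 in edgeR's quasi-likelihood test. With 1 replicate left out in turn both counts ran from 1, without scramble replicate 2 or snaR-A replicate 3, to 53 called and 29 past the limit without scramble replicate 3, and both were 7 without scramble replicate 1. Without scramble replicate 3 the 53 called and 29 past the limit became 1687 and 156 with the exact test, 2818 and 54 with DESeq2, 1180 and 135 with no count filter, 647 and 47 with at least 10 counts in every library, 876 called with annotated genes alone, 249 called without the identifiers at 0 and at 100 or more counts, and 11 and 2 with all A549 libraries in 1 fit. There, leaving out a further replicate gave 25, without scramble replicate 1, to 1097 called, and 20 to 150 past the limit, both highest without scramble replicate 2. Where 1 scramble library remained it was assumed to vary like the snaR-A group. The other counts were within 1.5 times the main ones, and the cause of these changes was not tested. The correlations of deviations from the group mean between snaR-A and scramble libraries of the same number were -0.04, 0.04 and 0.11. Between libraries of different numbers they ran from -0.11 to 0.08. With 3 libraries a group these values cannot settle whether the numbers pair the samples. With the replicate number as a block 0 were called and past the limit over 6 libraries (1451 at an unadjusted p under 0.05), and 46 called, 22 of them shared with the unblocked fit, without scramble replicate 3. With the block and a GC offset the counts were 0 over 6 libraries (1510 unadjusted) and 20 called and 18 past the limit without scramble replicate 3. The difference between the lines was called for 4406 identifiers with DESeq2, and for 1719 to 4268 with 1 replicate left out. Without A549 scramble replicate 3, its 4268 became 2721 with the block and 2032 to 3850 with 1 further replicate left out, lowest without scramble replicate 1. The sign turned for NME1 without scramble replicate 1 over 6 libraries (-0.026), and for BAG3 (0.0098) and KHSRP (0.014) with library size alone without scramble replicate 3. Of the other values for named genes under the alternatives, 3623 stayed on their side of the threshold with the same sign, 418 passed it anew and 302 no longer passed. Of list medians 686 moved by less than 1 SD and 154 by more, the SD being that of the list's median between the snaR-A libraries alone. That SD is wide where those libraries differ. The interferon list's medians relative to scramble were 0.10, 0.23 and 0.72 in them, so a small count of moves does not show stability there. With 3 libraries a group, or 2, small differences are not resolved, and 3 against 3 cannot reach an exact permutation p under 0.1.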
